A study of Homo sapiens with 18 samples.

Results

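Condensins are ring-shaped complexes that extrude loops of chromatin and compact chromosomes before cell division. Condensin I and condensin II share the ATPases SMC2 and SMC4 and differ in their other subunits, which are NCAPD2, NCAPG and NCAPH in condensin I and NCAPD3, NCAPG2 and NCAPH2 in condensin II. Type II topoisomerases cut both strands of DNA and pass another duplex through the break, which untangles sister chromosomes. TOP2A is the paralog of dividing cells, whereas TOP2B is also expressed in cells that no longer divide. In general, many genes of chromosome condensation are transcribed in S and G2 phase and are repressed when cells arrest in G1. Inhibitors of CDK4 and CDK6 cause such an arrest in cells with an intact retinoblastoma protein.

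The mRNA levels of these 10 genes were examined in SJSA-1 cells, a human osteosarcoma line. They were selected by symbol, as 10 of the 23368 gene entries in the count tables, and none of their measured values was used for the selection. Earlier results of these data were known at that time. The study asked how the CDK4/6 inhibitor PD0332991 (Palbociclib) affects gene expression in cells with and without Nutlin, which frees p53 from MDM2. RNA of 6 groups with 3 replicate libraries each was sequenced. The control received DMSO, and the group named Nutlin received 20 µM Nutlin for 6 h. PD24 and PD30 received 10 µM PD0332991 for 24 h and 30 h, and N+PD24 and N+PD30 received these treatments in combination with Nutlin. In PD24 and N+PD24 the inhibitor was absent from the medium in the closing 6 h, the window in which the Nutlin groups held Nutlin. A published treatment scheme, shown with immunoblots of liposarcoma lines, also names a lower Nutlin concentration than these labels do. The concentration given here is that of the labels. All groups are 1 cell line with no genetic change between them, and the replicates are described as biological triplicates.

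The libraries held between 12704845 and 40231041 counts (median 29608936), and N+PD30 replicate 1 was the shallowest. All 10 genes passed the filter on low counts in each of the 11 tests described here. Levels are given as CPM, the count of a gene per 1000000 counts of its own library. MDM2 ranged from 1151 to 28174 CPM over the 18 libraries, CDK4 from 1701 to 3160 CPM and RUNX2, a transcription factor of osteoblasts, from 18.2 to 34.5 CPM. The osteoblast markers COL1A1 and ALPL ranged from 1122 to 3697 CPM and from 10.6 to 111.6 CPM, whereas the later markers SP7 and BGLAP stayed at or under 0.244 CPM. Of 6 markers of other cell types, CD3E, CDH5, PTPRC and EPCAM stayed at or under 0.852 CPM. PECAM1 reached 2.36 CPM and ALB 2.65 CPM, both in the Nutlin group. In bulk RNA, fewer cells in a given cell cycle phase and less mRNA per cell cannot be told apart.

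The promoters of the TOP2 paralogs differed in the short sequence elements that are typical of cell cycle genes. These elements are the cell cycle genes homology region (CHR), read here as TTTGAA or TTTAAA on either strand, and the CCAAT box, read as CCAAT on either strand. The 250 bases before the start site are shown for both paralogs and, as a further pair, for the subunits NCAPD2 and NCAPD3, together with NCAPG, the condensin subunit that fell most in PD24 and PD30. All are from RefSeq on GRCh38.p14, written from 5′ to 3′ on the strand of the gene, and capitals mark CHR and CCAAT matches, none of which overlap.
TOP2A, chr17:40417897-40418146, minus strand: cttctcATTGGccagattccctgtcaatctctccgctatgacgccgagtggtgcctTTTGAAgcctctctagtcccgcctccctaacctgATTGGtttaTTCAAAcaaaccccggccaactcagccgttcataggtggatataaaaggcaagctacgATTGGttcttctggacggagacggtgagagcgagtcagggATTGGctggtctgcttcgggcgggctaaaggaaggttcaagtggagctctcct
TOP2B, chr3:25664373-25664622, minus strand: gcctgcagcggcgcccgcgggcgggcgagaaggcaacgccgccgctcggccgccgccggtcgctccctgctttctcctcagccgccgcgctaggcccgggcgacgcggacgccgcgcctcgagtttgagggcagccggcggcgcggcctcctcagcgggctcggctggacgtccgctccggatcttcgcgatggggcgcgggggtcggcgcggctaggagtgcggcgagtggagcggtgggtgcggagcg
NCAPD2, chr12:6493852-6494101, plus strand: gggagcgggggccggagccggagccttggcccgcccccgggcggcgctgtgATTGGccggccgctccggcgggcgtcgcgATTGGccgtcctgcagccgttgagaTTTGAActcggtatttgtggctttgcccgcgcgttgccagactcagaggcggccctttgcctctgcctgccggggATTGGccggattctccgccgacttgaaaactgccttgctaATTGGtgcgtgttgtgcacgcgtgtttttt
NCAPD3, chr11:134225462-134225711, minus strand: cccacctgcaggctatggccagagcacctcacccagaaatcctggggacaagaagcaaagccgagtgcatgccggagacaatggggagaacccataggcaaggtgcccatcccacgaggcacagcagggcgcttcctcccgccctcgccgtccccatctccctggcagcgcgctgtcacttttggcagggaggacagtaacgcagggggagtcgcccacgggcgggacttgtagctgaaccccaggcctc
NCAPG, chr4:17810729-17810978, plus strand: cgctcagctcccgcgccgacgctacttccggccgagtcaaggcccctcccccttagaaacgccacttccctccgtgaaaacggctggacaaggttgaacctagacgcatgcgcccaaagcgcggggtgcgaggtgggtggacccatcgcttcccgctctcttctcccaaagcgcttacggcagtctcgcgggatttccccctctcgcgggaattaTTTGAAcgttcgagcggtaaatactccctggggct

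The TOP2A promoter held 2 CHR matches, whose first bases lie at positions -194 and -151 from the start, and 4 CCAAT matches. TOP2B and NCAPD3 held none of either. NCAPD2 held 1 CHR match at position -145 and 4 CCAAT matches, and NCAPG held 1 CHR match at position -35. A promoter was found for 9 of the 10 genes, the exception being NCAPH2. Within 300 bases, from 250 before to 50 after the start, 6 of these 9 genes held TTTGAA (TOP2A, NCAPD2, NCAPG, NCAPG2, SMC2 and SMC4), against 1693 of 14060 promoters. NCAPH held TTTAAA, which 9.6% of the promoters hold, and 3 of 9 genes held CCAAT, against 36.5%. No gene held one of 4 forms of an E2F site (TTTCCCGC, TTTCGCGC, TTTGCCGC or TTTGGCGC on either strand), which 4.3% of promoters hold. GGGCGG, the GC box, was found in 6 of the 9 and in 58.8% of all, and it is not capitalised above. GC content of the 250 bases was 53.2% for TOP2A and 78.8% for TOP2B. A match describes the letters of the window only.

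PD0332991 lowered the mRNA of all 10 genes, with and without Nutlin and under both schedules. In each of the 4 comparisons with the matching group without PD0332991, 10 of 10 genes passed the test as lower (adjusted p under 0.05, with the Benjamini-Hochberg adjustment over all genes tested), and 9 of 10 also passed an absolute log2 fold change of 1, the exception being TOP2B. Of all genes tested, 20.8% were lower in PD24 against DMSO, 25.4% in PD30 against DMSO, 17.2% in N+PD24 against Nutlin and 24.7% in N+PD30 against Nutlin. The share that was lower and past the fold threshold was 7.96%, 9.48%, 4.6% and 13.9% in the same order. The libraries of the compared groups did not overlap for any of the 10 genes, as for 27.5%, 28.7%, 27.9% and 27.8% of all genes in this direction. PD24 and PD30 were compared with the same DMSO libraries, and N+PD24 and N+PD30 with the same Nutlin libraries, so the comparisons are not independent. The tests were edgeR's quasi-likelihood test, or limma on log2(CPM + 1) where N+PD24 was involved.

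TOP2A, the topoisomerase of dividing cells, went from the highest of the 10 levels to near that of the lower condensin subunits. Its level was 1097, 1121 and 1202 CPM in the DMSO libraries. It was 12.8, 8.68 and 8.80 CPM in PD24 and 24.7, 16.1 and 13.5 CPM in PD30. The groups were thus far apart, with means of 0.885% of the DMSO mean in PD24 and 1.59% in PD30. TOP2A was 111.2-fold lower in PD24 (log2 fold change -6.80 ± 0.18 SE, adjusted p = 1.28e-08) and 63.8-fold lower in PD30 (-6.00 ± 0.22, adjusted p = 3.20e-08, edgeR). These falls ranked 14 of 15094 and 41 of 15125 genes tested, counted from the largest fall. In the Nutlin libraries TOP2A stood at 1215, 809.0 and 852.6 CPM. It stood at 7.13, 9.34 and 5.52 CPM in N+PD24 and at 7.16, 12.6 and 7.02 CPM in N+PD30, again with no overlap. N+PD30 was 108.4-fold below Nutlin (log2 fold change -6.76 ± 0.29, adjusted p = 4.12e-08, edgeR). In N+PD24 the log2 fold change was -6.78 ± 0.20 (adjusted p = 2.72e-08, limma), the lowest of 15927 genes on the log2(CPM + 1) scale, which understates the change of genes with low levels.

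TOP2B, the paralog whose expression is not tied to division, fell much less. It stood at 204.6, 208.5 and 230.5 CPM in DMSO. It stood at 157.4, 139.3 and 165.6 CPM in PD24 and at 156.8, 140.3 and 152.7 CPM in PD30. Both groups lay below all DMSO libraries, at 71.8% and 69.9% of the DMSO mean. The log2 fold change was -0.46 ± 0.09 in PD24 (adjusted p = 0.00465) and -0.53 ± 0.08 in PD30 (adjusted p = 4.52e-04, edgeR), ranks 3011 and 2911 from the largest fall. With Nutlin, TOP2B went from 204.7, 169.5 and 160.8 CPM to 133.8, 133.0 and 123.2 CPM in N+PD24 and to 93.2, 116.0 and 114.6 CPM in N+PD30. These groups did not overlap with Nutlin either. The log2 fold change was -0.37 ± 0.12 in N+PD24 (adjusted p = 0.0381, limma) and -0.77 ± 0.14 in N+PD30 (adjusted p = 0.00107, edgeR). The N+PD24 call was lost in 4 of the 6 fits that left out 1 library, namely without Nutlin replicate 1 (adjusted p = 0.128) or 2 (0.0791) and without N+PD24 replicate 2 (0.0822) or 3 (0.112).

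Among the condensin I subunits, NCAPG and NCAPH fell most. NCAPG, a HEAT-repeat subunit, stood at 118.8, 117.6 and 137.0 CPM in DMSO, at 1.39, 1.39 and 1.47 CPM in PD24 and at 1.76, 1.42 and 1.28 CPM in PD30. Its means in PD24 and PD30 were 1.14% and 1.19% of the DMSO mean. The log2 fold changes were -6.43 ± 0.13 (adjusted p = 4.69e-09) and -6.41 ± 0.14 (adjusted p = 2.74e-09, edgeR). NCAPH, the kleisin that closes the ring of condensin I, stood at 77.2, 83.3 and 94.4 CPM in DMSO, at 1.53, 0.801 and 0.895 CPM in PD24 and at 2.17, 1.81 and 1.22 CPM in PD30. Its means were 1.26% and 2.04% of the DMSO mean, and the log2 fold changes -6.28 ± 0.22 and -5.64 ± 0.18 (adjusted p = 6.59e-08 and 1.62e-08, edgeR). With Nutlin, NCAPG went from 69.7, 51.8 and 60.4 CPM to between 0.947 and 1.62 CPM in N+PD24 and to 0.315, 1.01 and 1.31 CPM in N+PD30. NCAPH went from 43.8, 33.5 and 46.98 CPM to between 0.397 and 0.947 CPM in N+PD24 and to 0.315, 0.706 and 0.872 CPM in N+PD30. Both genes were thus near the limit of these libraries, and in the shallowest library, N+PD30 replicate 1, each had 4 reads. N+PD30 was lower than Nutlin by a log2 fold change of -6.04 ± 0.28 for NCAPG and -5.98 ± 0.25 for NCAPH (adjusted p = 5.36e-08 and 3.42e-08, edgeR). N+PD24 gave -4.71 ± 0.16 and -4.68 ± 0.18 on the log2(CPM + 1) scale (adjusted p = 3.97e-08 and 6.87e-08, limma), and -5.52 and -5.96 when edgeR was run on recovered reads.

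NCAPD2, the other HEAT-repeat subunit of condensin I, kept a larger share of its control level. It stood at 448.1, 414.8 and 459.0 CPM in DMSO, at 25.1, 29.8 and 32.0 CPM in PD24 and at 59.2, 53.8 and 47.5 CPM in PD30. These means were 6.58% and 12.1% of DMSO (log2 fold changes -3.90 ± 0.12 and -3.06 ± 0.10, adjusted p = 2.62e-08 and 1.65e-08, edgeR). With Nutlin it went from 473.2, 392.7 and 466.8 CPM to 36.8, 41.2 and 40.8 CPM in N+PD24 and to 46.9, 58.6 and 53.0 CPM in N+PD30. The means there were 8.92% and 11.9% of the Nutlin mean.

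The ATPases shared by both complexes fell to a similar share as each other. SMC2 stood at 143.3, 154.1 and 173.6 CPM in DMSO, at 13.8, 11.3 and 12.4 CPM in PD24 and at 13.2, 11.2 and 12.6 CPM in PD30. SMC4 stood at 465.1, 476.3 and 582.9 CPM in DMSO, at 54.1, 43.4 and 48.0 CPM in PD24 and at 46.3, 41.8 and 55.2 CPM in PD30. The PD24 and PD30 libraries overlapped for both genes, at 7.96% and 7.86% of the DMSO mean for SMC2 and 9.55% and 9.40% for SMC4. The log2 fold changes against DMSO were -3.63 ± 0.12 and -3.69 ± 0.11 for SMC2 (adjusted p = 4.98e-08 and 8.04e-09) and -3.37 ± 0.13 and -3.43 ± 0.13 for SMC4 (adjusted p = 1.13e-07 and 4.09e-08, edgeR). With Nutlin, SMC2 fell from 123.2, 103.1 and 106.0 CPM to between 6.07 and 6.64 CPM in N+PD24 and between 5.04 and 8.03 CPM in N+PD30. SMC4 fell from 354.5, 259.7 and 305.4 CPM to between 32.7 and 37.1 CPM in N+PD24 and between 23.2 and 37.04 CPM in N+PD30.

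The condensin II subunits kept between 14.5% and 30.2% of their DMSO means. NCAPD3 stood at 107.6, 112.9 and 123.2 CPM in DMSO, at 22.5, 18.8 and 19.4 CPM in PD24 and at 16.4, 16.9 and 16.7 CPM in PD30. NCAPG2 stood at 159.5, 163.5 and 175.9 CPM in DMSO, at 34.6, 29.9 and 24.3 CPM in PD24 and at 51.0, 48.6 and 34.5 CPM in PD30. NCAPH2, the kleisin of condensin II, stood at 51.3, 46.3 and 46.8 CPM in DMSO, at 13.7, 17.5 and 12.4 CPM in PD24 and at 8.89, 12.4 and 10.4 CPM in PD30. None of these groups overlapped with DMSO. In PD24, the log2 fold changes were -2.48 ± 0.11 for NCAPD3, -2.47 ± 0.14 for NCAPG2 and -1.71 ± 0.15 for NCAPH2 (adjusted p = 3.91e-07, 2.04e-06 and 4.50e-05). In PD30 they were -2.80 ± 0.09, -1.91 ± 0.14 and -2.20 ± 0.13 (adjusted p = 1.29e-08, 4.88e-06 and 1.23e-06, edgeR). With Nutlin, NCAPD3 went from 75.9, 69.2 and 77.3 CPM to between 8.05 and 9.14 CPM in N+PD24 and between 11.96 and 12.98 CPM in N+PD30. NCAPG2 went from 169.1, 145.1 and 152.8 CPM to between 19.6 and 34.3 CPM and between 26.2 and 40.2 CPM in the same groups. NCAPH2 went from 27.1, 33.0 and 39.6 CPM to between 7.30 and 9.35 CPM and between 11.5 and 12.5 CPM. The log2 fold changes in N+PD30 against Nutlin were -2.61 ± 0.12, -2.20 ± 0.18 and -1.53 ± 0.16 for NCAPD3, NCAPG2 and NCAPH2 (adjusted p = 6.29e-08, 5.18e-06 and 3.11e-05, edgeR).

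**Figure D1:**
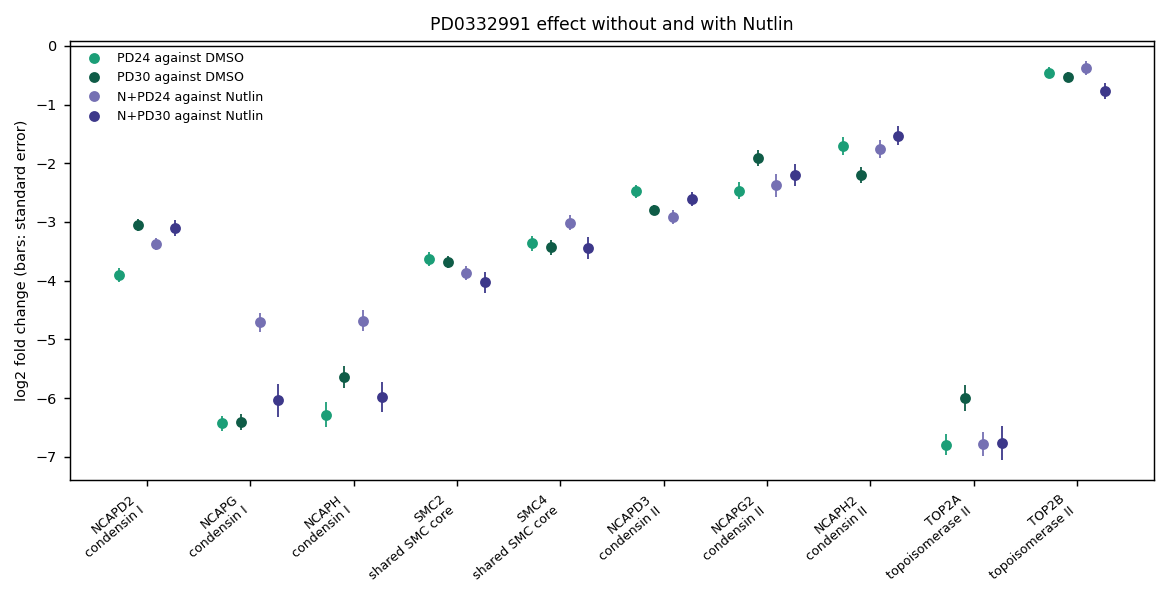
Log2 fold change (points) with its standard error (bars) for each of the 10 genes on the x axis in the 4 comparisons of PD0332991 with the matching group without it. All points lie below 0. TOP2A, NCAPG and NCAPH lie lowest, the condensin II subunits lie between -1.53 and -2.92, and TOP2B lies at -0.77 or above. The N+PD24 values are on the log2(CPM + 1) scale, which draws NCAPG and NCAPH upwards.

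Set side by side, the median log2 fold change of the 3 condensin I subunits was -6.28 in PD24 and -5.64 in PD30, that of the condensin II subunits -2.47 and -2.20, and that of SMC2 and SMC4 -3.50 and -3.56. With Nutlin, the condensin I medians were -4.68 for N+PD24 and -5.98 for N+PD30. In the same order, they were -2.38 and -2.20 for condensin II and -3.44 and -3.74 for the shared ATPases. The N+PD24 medians are from limma, on the scale that understates the change of genes with low levels. The N+PD30 medians are from edgeR, so the condensin I medians of these groups are not directly comparable. With edgeR on recovered reads, N+PD24 against Nutlin gave -3.41 for NCAPD2, -5.52 for NCAPG and -5.96 for NCAPH. Over all genes tested, the median lay between 0.002 and 0.0239 in these 4 comparisons.

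To compare paralogs within a library, the reads of one were divided by those of the other. This ratio is free of library scaling and, because it is not corrected for length, was compared only between groups. TOP2A had 5.36, 5.38 and 5.22 reads for each TOP2B read in DMSO. It had 0.0813, 0.0623 and 0.0531 in PD24 and 0.158, 0.115 and 0.0885 in PD30. The ratio was thus 82.3-fold lower in PD24 and 45.5-fold lower in PD30 than in DMSO, and 96.4-fold and 66.5-fold lower in N+PD24 and N+PD30 than in Nutlin. The NCAPG to NCAPG2 ratio was 0.745, 0.719 and 0.779 in DMSO, and it was 15.4-fold lower in PD24 and 22.4-fold lower in PD30. The NCAPH to NCAPH2 ratio was 1.504, 1.80 and 2.02 in DMSO, and it was 24.6-fold lower in PD24 and 10.9-fold lower in PD30. For both pairs the condensin I subunit thus fell further than its condensin II counterpart in every library.

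The NCAPD2 to NCAPD3 ratio moved less than the other 3, and without Nutlin it differed between the schedules. It was 4.16, 3.67 and 3.73 in DMSO, 1.12, 1.59 and 1.65 in PD24, and 3.61, 3.19 and 2.84 in PD30. PD24 was 2.69-fold below DMSO, whereas PD30 was 1.20-fold below it. In Nutlin this ratio was 6.24, 5.68 and 6.04, above all DMSO libraries, and it was 4.03, 4.97 and 5.06 in N+PD24 and 3.92, 4.72 and 4.08 in N+PD30. N+PD24 and N+PD30 were 1.28-fold and 1.41-fold below Nutlin, and they overlapped with each other (two-sided exact permutation p = 0.3). With 3 libraries against 3, a two-sided exact permutation test cannot go below p = 0.1, and this value was reached by all 4 ratios in each of the 4 comparisons of PD0332991 with its control (adjusted p = 0.144 over 36 ratio tests).

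**Figure D2:**
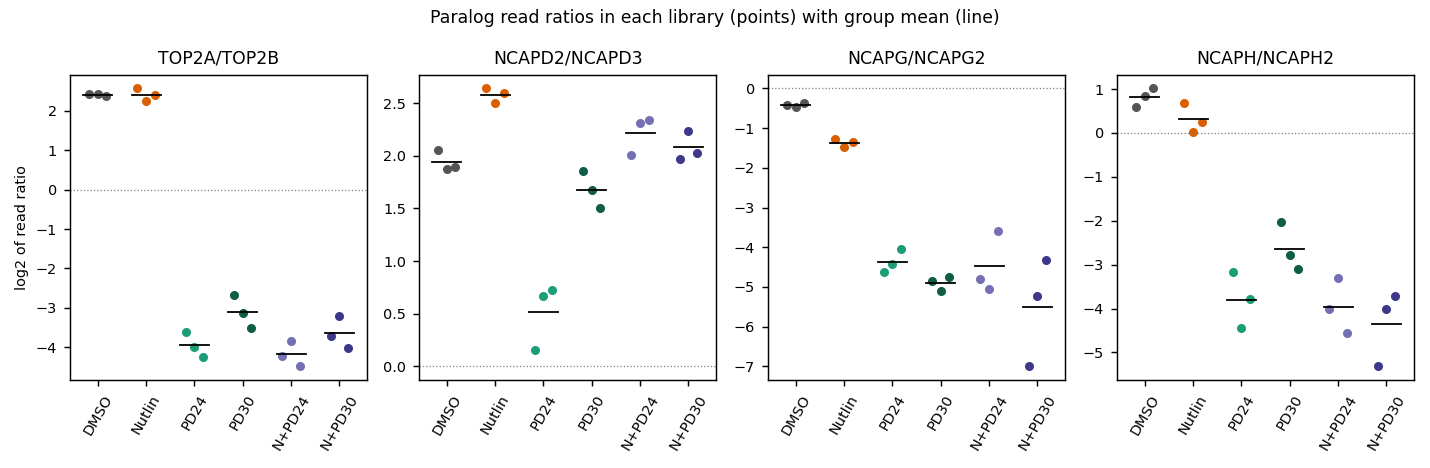
Log2 of the read ratio of each paralog pair in the 6 groups on the x axis, with 1 point per library and a line at the mean of 3. The dotted line marks equal reads. The TOP2A/TOP2B, NCAPG/NCAPG2 and NCAPH/NCAPH2 ratios are lower in all 12 libraries with PD0332991 than in the other 6, and NCAPD2/NCAPD3 is lowest in PD24.

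Levels of different genes were compared per length, as RPKM, the CPM divided by the length of the canonical transcript in kilobases. In DMSO the order was TOP2A at 200.2, SMC4 at 99.3, NCAPD2 at 91.3, NCAPG2 at 41.1, TOP2B at 36.9, NCAPG at 27.1, SMC2 at 26.5, NCAPD3 at 15.5, NCAPH2 at 14.4 and NCAPH at 14.1 RPKM. The ranges over the libraries overlapped between SMC4 and NCAPD2, between NCAPG2 and TOP2B, between NCAPG and SMC2 and among the last 3 genes. Within each DMSO library, however, NCAPG2 lay above TOP2B and NCAPD3 above NCAPH. The other overlapping genes changed order between libraries. In all 4 groups with PD0332991, TOP2B was first, at 26.5 RPKM in PD24, 25.8 in PD30, 22.4 in N+PD24 and 18.6 in N+PD30. NCAPH was last in these groups, with means from 0.0993 to 0.287 RPKM, and NCAPG second to last, with means from 0.191 to 0.324 RPKM.

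**Figure D3:**
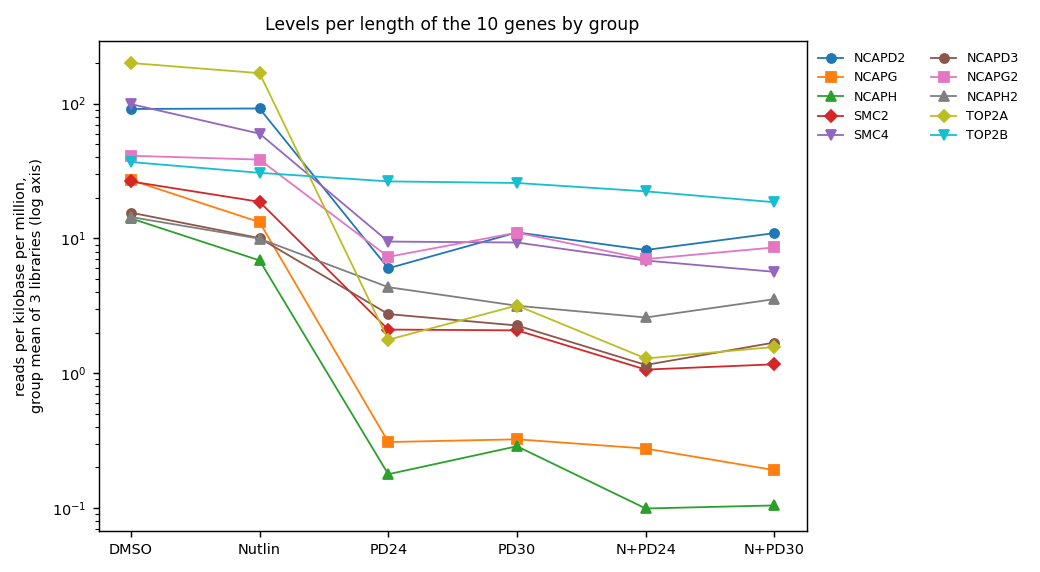
Group means of 3 libraries in RPKM (log axis) for the 10 genes across the 6 groups on the x axis; the lines only join the values of a gene. TOP2A is highest in DMSO at 200.2 and TOP2B is highest in the 4 groups with PD0332991.

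Nutlin for 6 h, without PD0332991, lowered 6 of the 10 genes, at a time when 28% of all 15766 genes tested were lower and 26.6% higher. None of the 6 passed the fold threshold, which 8.42% of all genes passed as lower. NCAPG and NCAPH had log2 fold changes of -0.91 ± 0.12 and -0.91 ± 0.13 (adjusted p = 1.44e-04 and 2.34e-04, edgeR). This test, scaled by TMM factors, put both at 1.88-fold lower. In CPM, scaled by library totals, their means were 48.7% and 48.8% of DMSO, or 2.05-fold lower. That is past the fold threshold, so for both genes this result depends on the scaling. SMC4 followed with -0.60 ± 0.13 (adjusted p = 0.00288), NCAPD3 with -0.50 ± 0.09 (adjusted p = 0.00102), NCAPH2 with -0.41 ± 0.13 (adjusted p = 0.0208) and SMC2 with -0.38 ± 0.11 (adjusted p = 0.0135, edgeR). The DMSO and Nutlin libraries did not overlap for these 6 genes, as was so in the same direction for 38.5% of all genes. The calls of NCAPH2 and SMC2 were each lost without certain single libraries, namely DMSO replicate 1 (adjusted p = 0.0596) or Nutlin replicate 2 (0.0524) for NCAPH2, and DMSO replicate 3 (0.0503) or Nutlin replicate 2 (0.0539) for SMC2.

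The other 4 genes did not pass the test after Nutlin. Log2 fold changes were 0.14 ± 0.09 for NCAPD2 (adjusted p = 0.235), 0.03 ± 0.09 for NCAPG2 (0.792), -0.12 ± 0.15 for TOP2A (0.498) and -0.14 ± 0.11 for TOP2B (0.314, edgeR). Nutlin replicate 1 was above both other Nutlin libraries for both topoisomerases. Without this library, TOP2A was lower by -0.34 (adjusted p = 0.00896) and TOP2B by -0.26 (adjusted p = 0.0355). The fall of the NCAPG to NCAPG2 ratio was 1.93-fold, from between 0.719 and 0.779 to between 0.357 and 0.412.

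Continuous PD0332991 was compared with its removal for the last 6 h. In PD30 against PD24, 2 of the 10 genes were higher and none lower, against 12.2% and 12.9% of all genes tested. NCAPD2 was 1.80-fold higher in PD30 (log2 fold change 0.85 ± 0.13, adjusted p = 0.00242), with no overlap between 25.1 to 32.0 CPM in PD24 and 47.5 to 59.2 CPM in PD30. TOP2A was 1.75-fold higher (0.81 ± 0.24, adjusted p = 0.0369, edgeR). PD24 replicate 1, at 12.8 CPM, came close to PD30 replicate 3, at 13.5 CPM, and the call was lost without PD24 replicate 2 (adjusted p = 0.086) or 3 (0.0808) and without PD30 replicate 1 (0.131) or 2 (0.0512). NCAPG2 had a log2 fold change of 0.56 ± 0.18 and missed the threshold (adjusted p = 0.051), but passed with scaling by total counts (0.0334), without the filter (0.0246), with DESeq2 (0.0173) and with its size factors in edgeR (0.0463). NCAPD3 had a log2 fold change of -0.32 ± 0.12 (0.087) and NCAPH2 of -0.49 ± 0.19 (0.0856). With the replicate number as a block, 5 genes were called, while the calls over all 15171 genes tested rose from 3816 to 6107. Besides NCAPD2 and TOP2A, NCAPG2 was then higher (0.55, adjusted p = 0.00152), and NCAPD3 (-0.31, adjusted p = 0.0475) and NCAPH2 (-0.49, adjusted p = 0.0136) were lower. The 2 remaining condensin I subunits, the shared ATPases and TOP2B passed neither fit.

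In the groups with Nutlin, 1 gene differed between the schedules. TOP2B was lower in N+PD30 than in N+PD24 by a log2 fold change of -0.38 ± 0.12 (adjusted p = 0.0334, limma), with 93.2 to 116.0 CPM in N+PD30 below 123.2 to 133.8 CPM in N+PD24. Of all genes tested, 16.3% were lower and 15.8% higher. The TOP2B call was lost without N+PD24 replicate 1 (adjusted p = 0.0793) or 2 (0.12) and without N+PD30 replicate 1 (0.0952) or 2 (0.085), and also when libraries were scaled by total counts (-0.27, adjusted p = 0.116). NCAPD3 missed the threshold with 0.40 ± 0.14 (adjusted p = 0.0517), although 11.96 to 12.98 CPM in N+PD30 did not overlap with 8.05 to 9.14 CPM in N+PD24. It passed with scaling by total counts (0.0216), a pseudocount of 0.25 (0.0487) and edgeR on recovered reads (0.0479). For TOP2A the difference was 0.13 ± 0.25 (adjusted p = 0.711) and for NCAPD2 it was 0.29 ± 0.12 (adjusted p = 0.0944, or 0.0378 with scaling by total counts).

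The effect of Nutlin in cells pretreated with PD0332991 differed between genes. In N+PD24 against PD24, NCAPD3 was 2.04-fold lower (log2 fold change -1.03 ± 0.14, adjusted p = 4.33e-04), SMC2 was lower by -0.75 ± 0.15 (adjusted p = 0.00265) and NCAPH2 by -0.55 ± 0.17 (adjusted p = 0.0261). NCAPD2 was higher by 0.58 ± 0.13 (adjusted p = 0.00636, limma), so that a HEAT-repeat subunit of condensin I rose while its condensin II counterpart fell. The NCAPD2 to NCAPD3 ratio was accordingly 3.27-fold higher in N+PD24 than in PD24, with no overlap (two-sided exact permutation p = 0.1, the smallest possible, adjusted p = 0.144). These are 3 of 10 genes lower and 1 higher, against 20.1% and 16.9% of all genes. The NCAPH2 call was lost without PD24 replicate 2 (adjusted p = 0.0866) and without N+PD24 replicate 1 (0.0717) or 2 (0.0619). With the replicate block, SMC4 was called as well (-0.31, adjusted p = 0.0193), as it was with scaling by total counts (-0.45, adjusted p = 0.0175). The block raised the calls over all 15531 genes tested from 5746 to 8109.

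In N+PD30 against PD30, 4 of 10 genes were lower and none higher, against 5.64% and 8.84% of all genes. NCAPH was 2.43-fold lower (log2 fold change -1.28 ± 0.34, adjusted p = 0.0423), from 1.22 to 2.17 CPM in PD30 to 0.315 to 0.872 CPM in N+PD30. SMC2 was lower by -0.73 ± 0.17 (adjusted p = 0.0282), SMC4 by -0.63 ± 0.17 (adjusted p = 0.0416) and TOP2B by -0.38 ± 0.10 (adjusted p = 0.0406, edgeR). These calls were close to the threshold, and all or all but 1 were lost in 5 fits that left out 1 library. In those 5 fits the calls over all genes tested fell too, from 2183 to between 583 and 1495. No gene passed without PD30 replicate 1, PD30 replicate 2 or N+PD30 replicate 2, and 1 passed without PD30 replicate 3 or N+PD30 replicate 1, whereas 4 passed without N+PD30 replicate 3. TOP2A had -0.90 ± 0.28 and missed the threshold (adjusted p = 0.0673), but passed with DESeq2 (0.0115), without the filter (0.0405) and with scaling by total counts (0.0459). NCAPH2 had 0.25 ± 0.16 (adjusted p = 0.309). With the replicate block, 7 genes were lower, the further ones being TOP2A (-0.88, adjusted p = 0.0299), NCAPD3 (-0.33, adjusted p = 0.047, and 0.0396 with scaling by total counts) and NCAPG2 (-0.27, adjusted p = 0.0486). The block also raised the calls over all 15077 genes tested from 2183 to 4375, of which 48.6% were lower.

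**Figure D4:**
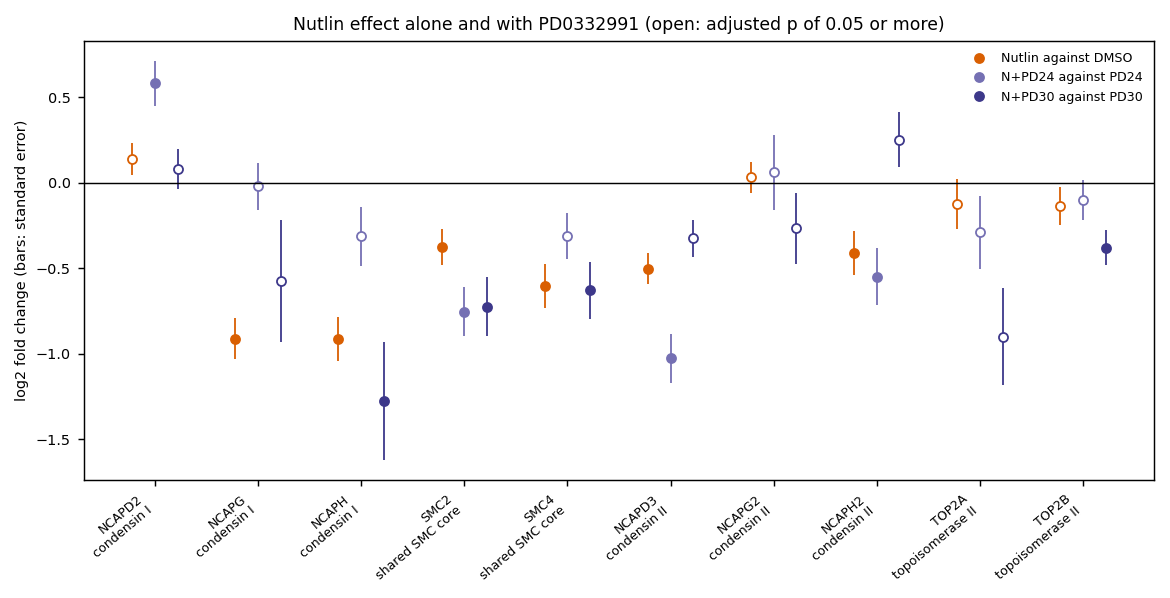
Log2 fold change (points) with its standard error (bars) of each gene on the x axis for Nutlin against DMSO, N+PD24 against PD24 and N+PD30 against PD30. Filled points passed an adjusted p of 0.05 and open points did not. NCAPD2 is the only filled point above 0, at 0.58 in N+PD24 against PD24, and the N+PD24 values are on the log2(CPM + 1) scale.

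Whether the effect of Nutlin differed with and without PD0332991 was tested by an interaction term over 12 libraries. With the PD24 schedule, 1 of 10 genes passed, against 1.75% of all genes. This was NCAPG, with an interaction of 0.90 ± 0.19 (adjusted p = 0.0345, limma). Nutlin lowered NCAPG from between 117.6 and 137.0 CPM to between 51.8 and 69.7 CPM without PD0332991, whereas N+PD24 and PD24 overlapped, at 0.947 to 1.62 CPM and 1.39 to 1.47 CPM. The interaction did not pass with a pseudocount of 0.25 (0.89, adjusted p = 0.0854) or with edgeR on recovered reads (0.88, adjusted p = 0.146). With the PD30 schedule, 1 of 10 genes passed, against 19.8% of all genes. This was NCAPH2, with 0.71 ± 0.21 (adjusted p = 0.0309, edgeR). Nutlin lowered NCAPH2 without PD0332991, whereas 11.5 to 12.5 CPM in N+PD30 stood beside 8.89 to 12.4 CPM in PD30. The NCAPG and NCAPH2 interactions were lost in 10 and 8 of 12 fits that left out 1 library, and their values stayed between 0.80 and 1.02 and between 0.58 and 0.86.

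Genes that act with condensin and topoisomerase II on mitotic chromosomes fell along with them. Of 19 partners, 16 were lower in PD30 against DMSO and none higher, and their median was -4.68 on the log2 scale. Among all genes tested, 25.4% were lower in PD30 against DMSO and 24.7% in N+PD30 against Nutlin. MKI67, the chromosome surfactant Ki-67, had -7.06, AURKB, the kinase of the chromosomal passenger complex, -6.63, and CDCA2, which recruits a phosphatase to anaphase chromosomes, -6.50 (adjusted p = 3.66e-09, 1.68e-09 and 3.50e-09, edgeR). In N+PD30 against Nutlin, 15 of 19 were lower and 2 higher, with CDK1 at -6.95, MKI67 at -6.44 and NUSAP1 at -6.37, and AKAP8 and AKAP8L higher by 0.56 and 0.38. The lists of S phase and G2/M genes each had 10 of 10 lower in the same comparisons. Their medians in PD30 against DMSO were -4.57 and -5.45. TOP2A and the condensin I subunits NCAPG and NCAPH lay below both medians. The third condensin I subunit NCAPD2 (-3.06), SMC2 (-3.69), SMC4 (-3.43), TOP2B (-0.53) and the condensin II subunits lay above both. The largest falls were CCNE2 (-6.99), RRM2 (-6.64) and GINS2 (-5.18) of S phase and CENPE (-6.27), BUB1B (-6.20) and TTK (-6.05) of G2/M. In N+PD30 against Nutlin they were RRM2 (-6.18), CCNE2 (-4.44) and GINS2 (-4.30), and BUB1B (-6.25), TTK (-6.16) and CENPF (-6.02).

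Among the other topoisomerases and decatenation factors, 8 of 11 were lower in PD30 against DMSO and none higher, and 7 were lower and 1 higher in N+PD30 against Nutlin. Of all genes tested, 25.4% and 24.7% were lower in these comparisons, and 3468 of 15125 and 3823 of 15721 were higher. ERCC6L, a translocase of ultrafine anaphase bridges, had log2 fold changes of -6.08 and -5.33, BLM, a helicase, of -4.26 and -3.81, and its partner RMI2 of -2.98 and -2.99. TOP3B was higher in the second comparison by 0.60. Of 12 genes of other SMC complexes, namely cohesin, the SMC5/6 complex and SMCHD1, 9 were lower and 2 higher in PD30 against DMSO, with a median of -0.75. In N+PD30 against Nutlin, 9 were lower and 1 higher, with a median of -0.74. SMCHD1, an SMC protein of the inactive X chromosome, had -1.52 and -1.53, SMC1A of cohesin -1.37 and -1.44, and NSMCE4A of the SMC5/6 complex -1.61 and -1.41. The SMC5/6 subunits NDNL2, with 0.40 and 0.82, and NSMCE1, with 0.37 in PD30 against DMSO, were higher. Of the SJSA-1 and osteoblast markers, 2 of 5 that could be tested were lower in PD30, MDM2 by -0.98 and CDK4 by -0.31, and MDM2 alone in N+PD30 (-1.70). Of the markers of other cell types, none of 2 passed in PD30, and ALB (-2.89) and PECAM1 (-1.14) were lower in N+PD30.

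PD24 against DMSO and N+PD24 against Nutlin each had 15 of 19 partners lower and 1 higher, and 10 of 10 S phase and 10 of 10 G2/M genes lower. Of all genes tested, 20.8% and 17.2% were lower in these comparisons, and 2639 of 15094 and 2712 of 15927 were higher. In the same 2 comparisons, 8 of 11 other topoisomerases and decatenation factors were lower and 1 higher, and 9 and 7 of the 12 genes of other SMC complexes were lower, with 2 and 0 higher. Nutlin against DMSO had 16 partners lower and 1 higher, 7 S phase genes lower and 1 higher, and 9 G2/M genes lower. There, 28% of all genes tested were lower and 26.6% higher. PD30 against PD24 had 3 partners lower and 1 higher, 6 S phase genes lower, and 1 G2/M gene in each direction. In that comparison, 12.9% of all genes tested were lower and 12.2% higher. N+PD30 against N+PD24 had 2 partners lower and 3 higher, N+PD24 against PD24 6 lower and 1 higher, and N+PD30 against PD30 1 in each direction. In the same order, 16.3%, 20.1% and 5.64% of all genes tested were lower and 15.8%, 16.9% and 8.84% higher. In the interactions, 4 partners with the PD24 schedule and 5 with the PD30 schedule had a positive term and none a negative one. Over all genes tested, 1.75% and 19.8% were called in either direction, with 163 of 16301 and 2060 of 16113 positive.

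As a description, the 10 genes were related over the 18 libraries by Pearson's r of log2(CPM + 1), where the 6 groups and their shared scaling set most of the relation. Between TOP2A and NCAPH r was 0.992, between NCAPG and NCAPH 0.993 and between SMC2 and SMC4 0.993. TOP2B was less like the others, with r from 0.715 with NCAPD2 to 0.881 with SMC4. Of 10892 genes with a mean of at least 5 CPM, those most like TOP2A were CIT (0.998), UBE2C (0.997), NUSAP1 (0.997), PBK (0.997) and PRC1 (0.996). Those most like TOP2B were SMARCC1 (0.972), DDX46 (0.968), RAB8B (0.967), TIPRL (0.966) and AIDA (0.961), and those most like NCAPH2 were HAUS5 (0.990), LMNB2 (0.987), DNMT1 (0.987), REEP4 (0.983) and CCHCR1 (0.983). The median over all other genes was -0.01 for TOP2A, 0.10 for TOP2B and 0.04 for NCAPH2.

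On GRCh37, the build of the count tables, TOP2A lies at chr17:38544777-38574148 on the minus strand with 35 exons in its canonical transcript, and TOP2B at chr3:25639469-25706400, also minus, with 36. The condensin I genes are NCAPD2 at chr12:6602522-6641121 (plus strand, 32 exons), NCAPG at chr4:17812602-17846488 (plus, 21) and NCAPH at chr2:97001504-97042829 (plus, 18). The condensin II genes are NCAPD3 at chr11:134020008-134095398 (minus, 35), NCAPG2 at chr7:158423861-158497495 (minus, 28) and NCAPH2 at chr22:50946653-50963209 (plus, 20). SMC2 lies at chr9:106856541-106903700 (plus, 25) and SMC4 at chr3:160117062-160152742 (plus, 24). Genes on the opposite strand overlap NCAPD2 (MRPL51), NCAPG (LCORL), NCAPD3 (JAM3 and VPS26B), NCAPH2 (SCO2) and SMC4 (IFT80 and TRIM59). Reads were counted with the setting for reverse-stranded libraries, while the sources do not say whether the kit kept the strand, so the part of such reads in the values of these 5 genes is uncertain and was not tested.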

How the data were processed

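RNA of SJSA-1 cells was sequenced in 18 libraries (6 groups, 3 replicates), grouped by sample title. The authors mapped reads to hg19 with TopHat and Bowtie2 and counted them per gene with HTSeq 0.6.0, per the labels and methods. The authors deposited whole-number counts for 5 groups. The deposited N+PD24 values are a signal, counts divided by a size factor per library, from which reads were recovered (100% whole within 0.001). No column of an unmapped sample was used, and 28 gene entries carry names turned into dates. The genes, lists and tests were chosen with earlier results of these data known.

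Counts were tested with edgeR 4.0.16 (quasi-likelihood, TMM, filterByExpr with a minimum count of 10, R 4.3.3), each comparison on its own groups and the interactions on 12 libraries. Comparisons with N+PD24 used limma 3.58.1 with a trend on log2(CPM + 1), because these values were deposited in normalized form. Across tables, libraries were set side by side as counts or recovered reads scaled by their own totals. On recovered reads, edgeR called 5483 genes in N+PD24 against Nutlin, against 5459 with limma. P-values were adjusted by Benjamini-Hochberg over all genes tested. Paralog ratios were compared with two-sided exact permutation tests. Lists were named by the 3 largest falls and rises at an adjusted p under 0.05 in PD30 against DMSO and N+PD30 against Nutlin. All 10 genes were tested in each comparison, but not every value is printed. Genes of like pattern were the 5 with the highest r. On simulated data for PD30 against DMSO (15125 genes), edgeR recovered 95% of 100 genes changed by 1 on the log2 scale and 100% of those changed by 2. For N+PD24 against Nutlin (15927 genes), limma recovered 89% and 100%.

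Replicate numbers were taken as pairs where same-numbered libraries deviated together (every r over 0.1). This held for PD30 with N+PD30 (lowest r 0.199), N+PD24 with PD24 (0.231), PD24 with PD30 (0.320) and N+PD24 with Nutlin (0.552), and not for DMSO with Nutlin, PD24 or PD30, Nutlin with N+PD30, or N+PD24 with N+PD30. Alternatives were DESeq2 1.42.0, its size factors in edgeR, scaling by total counts, no filter, the replicate block, a pseudocount of 0.25, edgeR on recovered reads, a fold threshold, 0.5 reads added in ratios, and leaving out each library. The authors' normalized tables of the same libraries and their own base means, fold changes, test statistics and p-values for Nutlin against DMSO were not used. Promoters were read from RefSeq on GRCh38.p14, with no conversion of coordinates, and gene positions from GENCODE on GRCh37. Figures were drawn with matplotlib.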

Additional observations from a re-analysis of the deposited data

Results flagged for a closer look

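An interaction term over 12 libraries, which tests whether the response to Nutlin differed with and without PD0332991, passed for 2 of the 10 genes. For NCAPG with the PD24 schedule the interaction was 0.90 (adjusted p = 0.0345, limma), with 1.75% of all genes called. DMSO replicates lay at 118.8, 117.6 and 137.0 CPM and Nutlin replicates at 69.7, 51.8 and 60.4 CPM. PD24 lay at 1.39, 1.39 and 1.47 CPM and N+PD24 at 1.23, 0.947 and 1.62 CPM. The interaction value is on the log2(CPM + 1) scale. This call was lost in 10 of 12 fits without 1 library, with a pseudocount of 0.25 (adjusted p = 0.0854) and with edgeR on recovered reads (0.146). For NCAPH2 with the PD30 schedule it was 0.71 (adjusted p = 0.0309, edgeR), with 19.8% of all genes called. NCAPH2 stood at 51.3, 46.3 and 46.8 CPM in DMSO and at 27.1, 33.0 and 39.6 CPM in Nutlin. It stood at 8.89, 12.4 and 10.4 CPM in PD30 and at 12.5, 11.5 and 11.5 CPM in N+PD30. This call was lost in 8 of 12 fits without 1 library. With 3 libraries a group, single libraries were not tested as outliers.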

How the results depend on the processing

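The 59 fold changes that passed the test in the main analysis kept their direction in all 661 refits, and 58 of these refits missed the threshold. All 10 genes stayed lower in PD24 and PD30 against DMSO and in N+PD30 against Nutlin in every refit without 1 library. The replicate block brought the genes called to 5 in PD30 against PD24 and to 7 in N+PD30 against PD30, added SMC4 in N+PD24 against PD24, and changed no other call of the 10 genes. Over all genes tested, it raised the calls in these comparisons from 3816 to 6107, from 2183 to 4375 and from 5746 to 8109. Requiring an absolute log2 fold change over 1 left 0 genes in Nutlin against DMSO, PD30 against PD24, N+PD30 against N+PD24 and both interactions, and 1 each in N+PD24 against PD24 and N+PD30 against PD30. In Nutlin against DMSO this depends on the scaling, since NCAPG and NCAPH were each 2.05-fold lower in mean CPM. For N+PD30 against N+PD24, scaling by total counts, a pseudocount of 0.25 and edgeR on recovered reads each gave 2 genes. For the PD24 interaction, a pseudocount of 0.25 and edgeR on recovered reads each gave 0. Without 1 library, the genes called ranged from 1 to 3 in PD30 against PD24, 0 to 2 in N+PD30 against N+PD24, 0 to 4 in N+PD30 against PD30 and 0 to 1 in both interactions.

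In PD30 against PD24, NCAPG2 passed under 4 further alternatives, and in N+PD30 against PD30, TOP2A passed under 3. Directions turned only among values that did not pass the test. Scaling by total counts gave -0.0949 for NCAPG2 in Nutlin against DMSO, 0.0293 for NCAPH and 0.0909 for SMC2 in N+PD30 against N+PD24, -0.0782 for NCAPG2 in N+PD24 against PD24 and -0.0153 for NCAPD2 in N+PD30 against PD30. Without the filter, NCAPG2 in Nutlin against DMSO was -0.0043, SMC2 in N+PD30 against N+PD24 was 0.0047 and NCAPD2 in the PD30 interaction was 0.0011. SMC2 in N+PD30 against N+PD24 was 0.0255 with edgeR on recovered reads, and SMC4 in the PD30 interaction was -0.029 with DESeq2 and -0.0366 with its size factors. Leaving out single libraries gave these ranges. In Nutlin against DMSO, NCAPG2 ranged from -0.0458 to 0.0692. In PD30 against PD24, SMC2 ranged from -0.106 to 0.0119, SMC4 from -0.167 to 0.0195 and NCAPG from -0.10 to 0.13. In N+PD30 against N+PD24, SMC2 ranged from -0.11 to 0.17, NCAPH from -0.11 to 0.14, NCAPG2 from -0.0722 to 0.386 and TOP2A from -0.11 to 0.30. In N+PD24 against PD24, NCAPG2 ranged from -0.13 to 0.30 and NCAPG from -0.136 to 0.0802, and in N+PD30 against PD30, NCAPD2 ranged from -0.005 to 0.159. In the PD24 interaction, TOP2A ranged from -0.294 to 0.0618, TOP2B from -0.0397 to 0.169, NCAPH2 from -0.25 to 0.0067 and NCAPG2 from -0.13 to 0.29. In the PD30 interaction, NCAPD2 ranged from -0.10 to 0.0551 and SMC4 from -0.17 to 0.15. Log2 ratios ranged from -0.08 to 0.077 for TOP2A/TOP2B in Nutlin against DMSO, -0.56 to 0.17 and -1.21 to 0.13 for NCAPG/NCAPG2 in N+PD24 against PD24 and N+PD30 against PD30, and -0.71 to 0.0838 and -0.49 to 0.16 for NCAPH/NCAPH2 in N+PD30 against N+PD24 and N+PD24 against PD24. The cause was not tested.

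Scaling by total counts moved the median of all genes from 0.03 to -0.10 in Nutlin against DMSO and raised the lower share of all calls from 51.3% to 63.3% there, from 54.2% to 69.3% in N+PD24 against PD24 and from 38.9% to 56.2% in N+PD30 against PD30, and cut it from 50.8% to 38.3% in N+PD30 against N+PD24. Depth limits NCAPG and NCAPH most, with 4 to 65 reads per library in the groups with PD0332991.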
